A study of Homo sapiens with 8 samples.

Results

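The genes described here encode enzymes and membrane proteins of the lysosome. They were taken as a list of 42 gene symbols, which was chosen with earlier results of these data known. Each gene was represented by its brightest probe set among those that carried its symbol. Of these 42 genes, 40 were measured, out of 17687 genes with a symbol on the array. GLB1 and NPC2 were not measured here under their symbols. No gene of the list had more than 1 probe set.

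Total RNA of 2 human chronic myeloid leukemia lines, K562 and KBM5, was measured on 8 expression arrays. Each line was left without drug (control), exposed to OR21 at 100 nM for 3 days, exposed to imatinib (IM) at 1000 nM with RNA taken after 24 h, or exposed to OR21 and then IM (the combination, whose sample label gives no OR21 dose, so that 100 nM is taken from the treatment protocol). OR21 is a demethylating agent, per the series title, and imatinib inhibits the ABL tyrosine kinase, including the BCR-ABL fusion kinase of chronic myeloid leukemia. The study asked, by its own description, which expression changes the combination alone brings about. Each condition was measured on 1 array and each line is an established cell line, so no group had a replicate and a p-value measures the spread between array pairs and between lines, which may be technical.

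The lysosome is an acidic organelle in which proteases, glycosidases, sulfatases and lipid enzymes break down material delivered by endocytosis and autophagy. A proton pump acidifies it, and heavily glycosylated proteins such as LAMP1 and LAMP2 line its membrane. The factors TFEB and TFE3 move to the nucleus when the kinase complex mTORC1 is inactive and bind an extended E-box found in the promoters of many lysosomal genes. Cells of the monocyte and macrophage lineage are rich in lysosomes.

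Because the list is often discussed through that promoter element, the sequences are shown first. RefSeq promoters (GRCh38.p14, from 250 bases before to 50 bases after the gene start) were at hand for 31 of the 42 genes. The E-box CACGTG, which reads the same on both strands, stood in 11 of these 31 genes (35.5%), against 8.77% of the 27305 genes in the table. The extended form TCACGTGA, which also reads the same on both strands and holds the E-box in its middle, stood in 7 of 31 (22.6%), against 1.18% of all genes in the table. The GC box (GGGCGG, or CCGCCC on the other strand) stood in 80.6% of the 31 genes, against 48.3% of all genes in the table. The part of base composition in these shares was not tested. A match is a description of letters and not of a bound site. The windows below, read along the gene's strand, were chosen after the values were seen. They show the extended form in capitals for the 7 genes that have it, and the plain E-box in capitals for CTSD:
LAMP1, chr13:113297199-113297228, plus strand: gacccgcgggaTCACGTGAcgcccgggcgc
CTSA, chr20:45891298-45891327, plus strand: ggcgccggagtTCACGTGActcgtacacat
GALNS, chr16:88857104-88857133, minus strand: caggcaccgcgTCACGTGAcccgccgctgg
MCOLN1, chr19:7522571-7522600, plus strand: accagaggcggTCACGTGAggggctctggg
ATP6V0D1, chr16:67481199-67481228, minus strand: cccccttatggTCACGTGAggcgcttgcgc
CLN3, chr16:28492058-28492087, minus strand: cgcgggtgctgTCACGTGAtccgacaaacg
GAA, chr17:80101493-80101522, plus strand: gggaggccgcgTCACGTGAcccaccgcggc
CTSD, chr11:1763957-1763986, minus strand: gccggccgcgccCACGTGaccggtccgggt

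A related 8-letter element, the M-box (TCACATGA, or TCATGTGA on the other strand), was searched after the sequences were seen. It stood in CD63, GRN, PPT1 and TPP1 (12.9% of the 31 genes, against 1.24% of all genes in the table). CD63 and PPT1 were not called with IM over both lines (limma, adjusted p = 0.459 and 0.535). CTSZ and SMPD1, which were called and had a promoter at hand, did not hold it. The 250 bases before the start of TPP1 and of GRN are shown because both genes rose with IM in both lines and each holds 2 M-boxes, in capitals:
TPP1, chr11:6619423-6619672, minus strand: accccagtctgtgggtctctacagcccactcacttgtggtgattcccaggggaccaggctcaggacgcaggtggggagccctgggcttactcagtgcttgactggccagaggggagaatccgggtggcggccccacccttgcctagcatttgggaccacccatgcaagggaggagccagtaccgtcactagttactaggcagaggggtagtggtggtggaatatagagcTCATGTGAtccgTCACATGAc
GRN, chr17:44345052-44345301, plus strand: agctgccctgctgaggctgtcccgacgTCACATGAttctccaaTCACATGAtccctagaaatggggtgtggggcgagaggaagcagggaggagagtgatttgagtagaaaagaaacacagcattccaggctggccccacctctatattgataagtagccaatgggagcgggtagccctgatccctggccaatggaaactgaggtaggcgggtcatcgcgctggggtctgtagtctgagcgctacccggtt

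Intensities are linear, as deposited, and an array's background was set at the 95th percentile of 612 negative controls, 161 to 263 over the 8 arrays. Per array, 28 to 32 of the 40 genes were above background. On all 8 arrays 24 genes were above it, on some arrays 8, and on none the other 8: CTSF, CTSK, GAA, NAGLU, ARSA, SMPD1, TFEB and TFE3. No fold is given for these 8. Over all genes 4660 of 17687 were above background on all 8 arrays and 9227 on none. The shares of all genes given below count genes at background too, and the list holds relatively fewer of them. The part of this in the comparisons of the list with all genes was not tested.

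**Figure D1:**
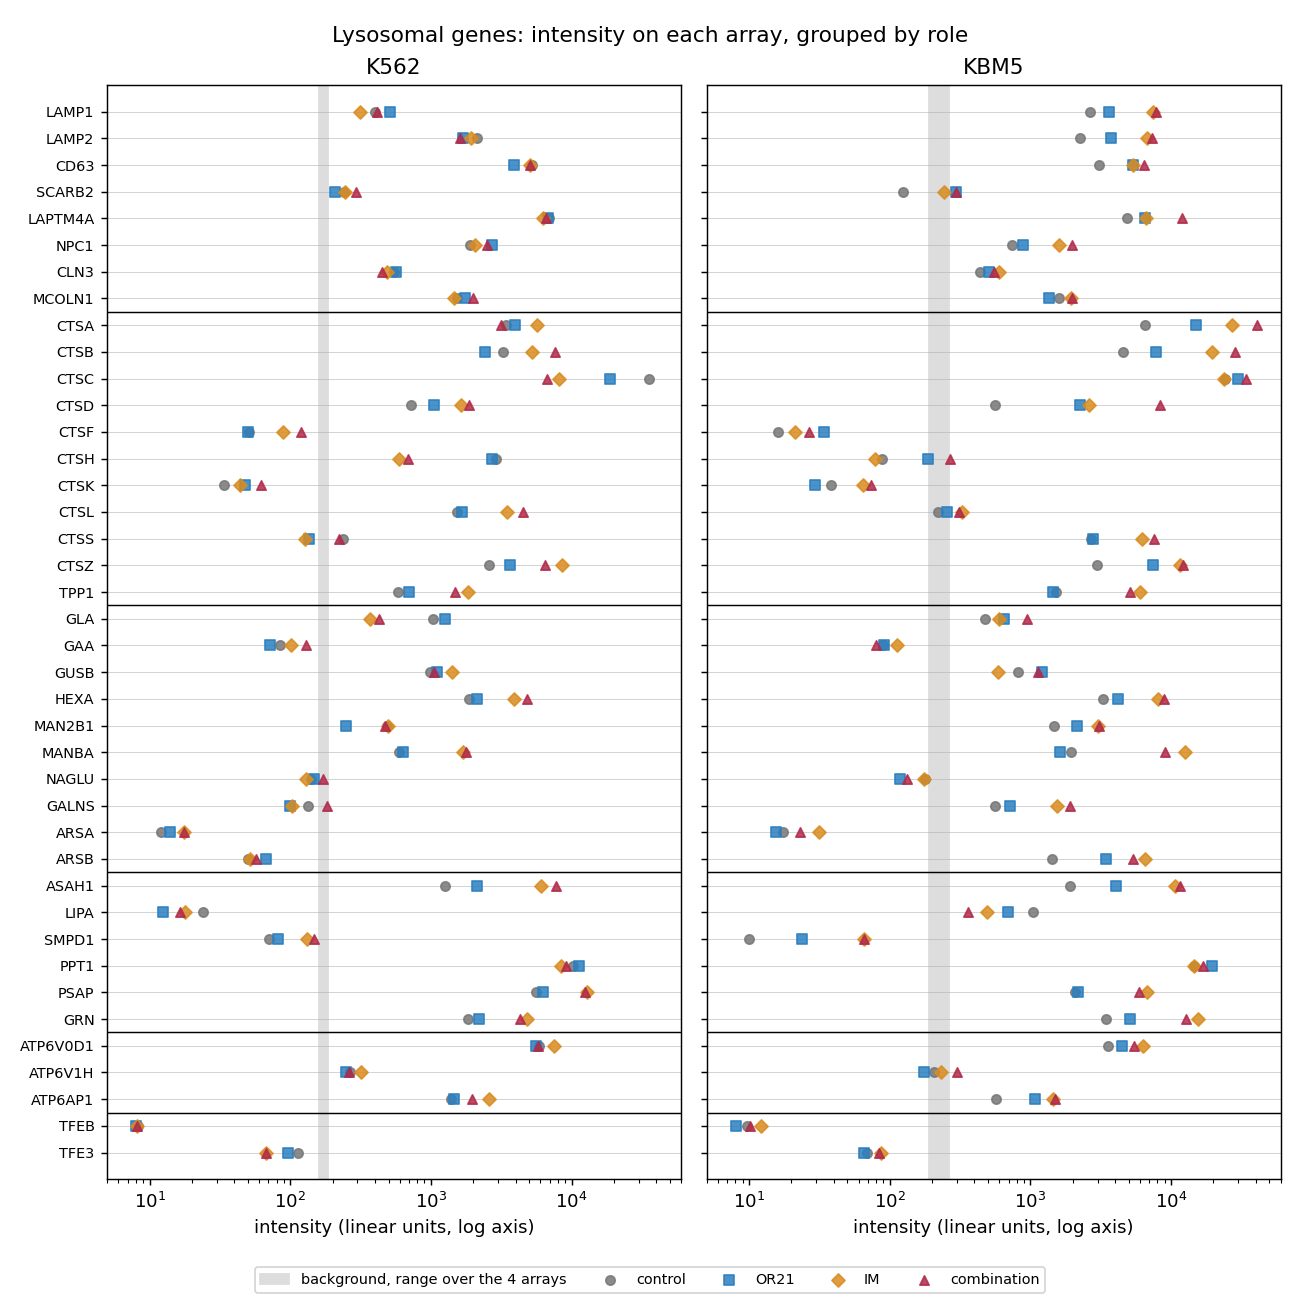
Intensity (x axis, linear units on a log axis) of the 40 measured lysosomal genes (y axis, grouped by role) on the 4 arrays of K562 (left) and of KBM5 (right), 1 symbol per array, with the range of the background shaded. The genes at background on all 8 arrays lie within or left of the shading, and LAMP1, CTSS, GALNS, ARSB and LIPA lie further right in KBM5 than in K562.

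The lines kept different marker genes. The 8 erythroid markers measured summed to 138363 to 1114170 on the K562 arrays and 368 to 519 on the KBM5 arrays, where all 8 were at background. The 10 monocytic and granulocytic markers summed to 1842 to 2758 in K562 and 13426 to 259521 in KBM5, where LYZ (lysozyme) led the sum and CD14, ITGAM, MRC1 and CD163 were at background on every array. Of the 5 lymphoid markers 3 were at background on all 8 arrays, and the sum was 244 to 968 over the 8.

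The question of what IM did to the lysosomal genes was addressed first over both lines, with the lines, and the pairs of IM against control and of the combination against OR21, as repeats. A group of soluble enzymes and their carriers rose. With IM, 9 of the 40 genes were higher and none lower (limma, adjusted p under 0.05), where 7.63% of all genes were called in either direction, 2.75% higher and 4.87% lower. The 9 were ASAH1, MANBA, TPP1, CTSB, GRN, PSAP, CTSZ, HEXA and SMPD1, of which SMPD1 (acid sphingomyelinase) was at background on all 8 arrays. In all 4 array pairs 18 of the 40 genes were higher with IM, against 17.1% of all genes, and 1, PPT1, was lower, against 15.1%. The median difference was 0.57 on the log2 scale for the 40 genes and 0.06 for all genes. In a population of cells, a change in the share of cells and a change in RNA per cell cannot be told apart.

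Among the lipid enzymes and their carriers, a group that also counted GRN, 4 of 6 were called: ASAH1, PSAP, GRN and SMPD1. Of these SMPD1 was at background on every array. ASAH1, the acid ceramidase (chromosome 8, 18055992 to 18084961, GRCh38.p14), read 1270 in the K562 control and 2139 with OR21, against 6049 with IM and 7717 with the combination. In KBM5 it read 1916 and 4062 without IM, against 10679 and 11491 with it. Within each line the arrays with IM lay above those without it. Here and below, such a separation is described for genes named by their calls. Its share over all genes was not counted. The difference was 2.02 ± 0.17 on the log2 scale (SE, 4 array pairs), or 4.06-fold higher (limma, adjusted p = 0.00507).

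PSAP, whose protein prosaposin is cleaved into the saposins that help glycolipid enzymes, read 5581 and 6304 in K562 without IM and 12930 and 12389 with it. In KBM5 PSAP read 2082 and 2184 without IM and 6761 and 5888 with it. The PSAP difference was 1.33 ± 0.18 (SE, limma, adjusted p = 0.0139), and no array with IM fell among those without it in the same line. GRN (progranulin, a secreted and lysosomal protein) differed by 1.46 ± 0.20 (SE, limma, adjusted p = 0.0132). PPT1, a palmitoyl-protein thioesterase, was between 8391 and 19403 on the 8 arrays and differed by -0.20 (adjusted p = 0.535).

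Of the 11 proteases 3 were called. TPP1, a tripeptidyl peptidase, read 583 and 701 in K562 without IM and 1849 and 1475 with it. In KBM5 TPP1 read 1528 and 1451 without IM and 6036 and 5108 with it. Again no array with IM overlapped those without it in the same line, and the difference was 1.63 ± 0.20 (SE, limma, adjusted p = 0.00956). CTSB (cathepsin B, a cysteine protease) differed by 1.58 ± 0.28 (SE, adjusted p = 0.0239) and CTSZ (cathepsin Z, a carboxypeptidase) by 1.31 ± 0.21 (SE, adjusted p = 0.0185). CTSD (cathepsin D, the main aspartic protease of the lysosome) was higher in all 4 pairs by 1.54 ± 0.38 (SE) and did not pass the test (limma, adjusted p = 0.0598).

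Of the 10 glycosidases and sulfatases 2 were called. MANBA, the beta-mannosidase (chromosome 4, 102630770 to 102760968, GRCh38.p14), read 592 and 639 in K562 without IM and 1685 and 1785 with it. In KBM5 MANBA read 1946 and 1635 without IM and 12653 and 9018 with it. The arrays with IM were the higher ones in each line, and the difference of 2.04 ± 0.28 (SE) amounted to 4.11-fold (limma, adjusted p = 0.0133). HEXA, the alpha subunit of beta-hexosaminidase, differed by 1.16 ± 0.16 (SE, adjusted p = 0.0142), with pairs from 1.06 to 1.30, the narrowest range among the 9 genes.

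None of the 8 membrane proteins, 3 proton pump subunits and 2 factors was called over both lines by limma. At an unadjusted p under 0.05 the counts were 0, 1 and 0, where 24.1% of all genes passed in either direction. The pump subunit was ATP6AP1, an accessory protein of the pump, at 0.78 ± 0.21 (SE, adjusted p = 0.0721). LAMP1 differed by 0.49 (adjusted p = 0.469), LAMP2 by 0.58 (adjusted p = 0.368) and MCOLN1, the calcium channel of the lysosomal membrane, by 0.23 (adjusted p = 0.531). TFEB and TFE3 were at background on all arrays, so these arrays hold no measured level of either.

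The 9 calls over both lines rested on several arrays. With each array left out in turn, ASAH1 was called in 8 of 8 fits and TPP1 in 5. The count of called genes was 3 without the K562 OR21 array and 2 without the K562 combination or the KBM5 control. It was 1 without the KBM5 OR21, the KBM5 IM or the KBM5 combination.

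**Figure D2:**
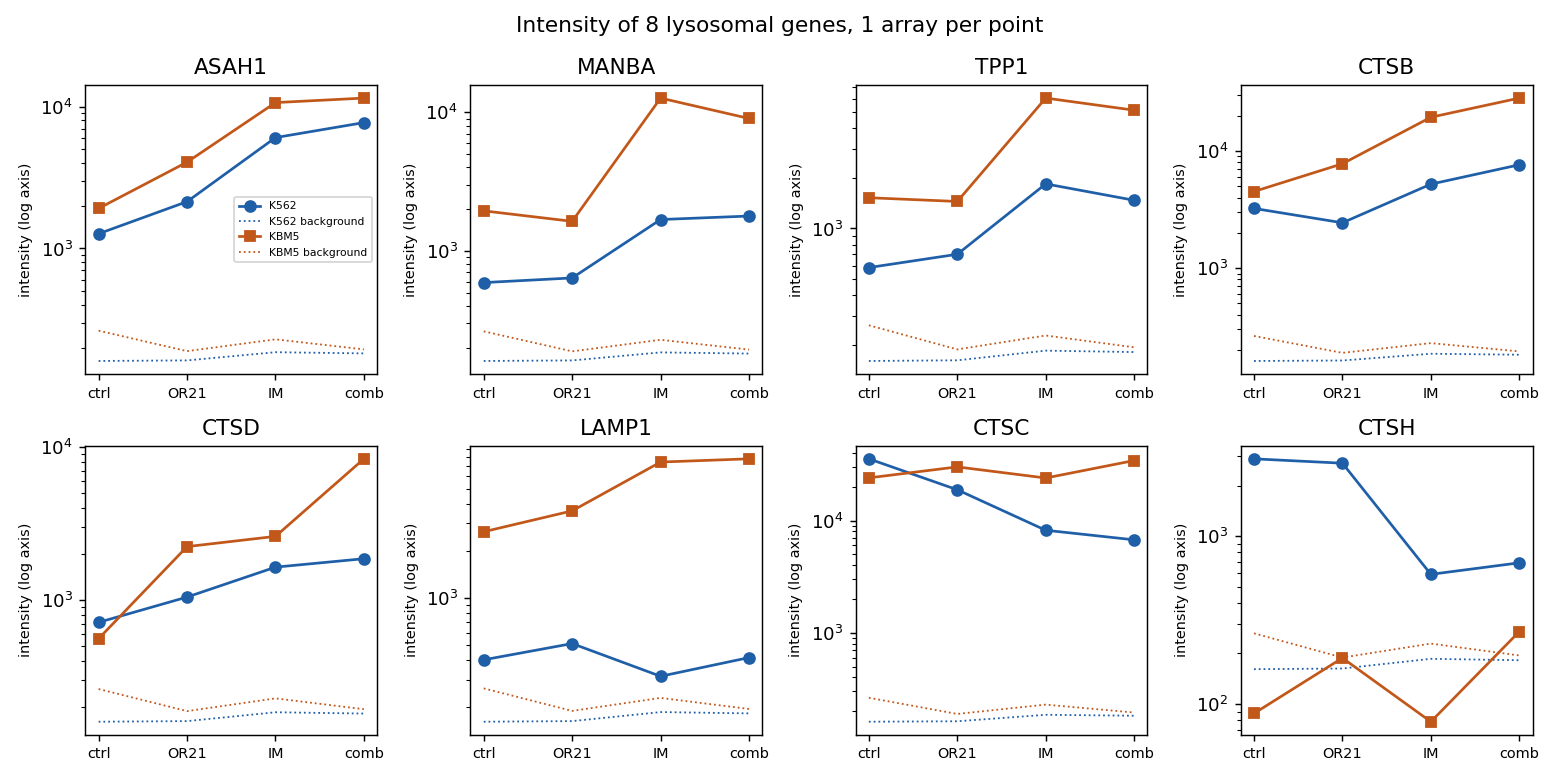
Intensity (y axis, log axis) of 8 lysosomal genes on the control, OR21, IM and combination arrays (x axis) of K562 (circles) and KBM5 (squares), 1 array per point, with the background of each array dotted. ASAH1, MANBA, TPP1 and CTSB are higher on the arrays with IM in both lines, LAMP1 in KBM5 alone, and CTSC and CTSH are lower with IM in K562.

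Within KBM5, membrane proteins joined the enzymes. IM raised 19 of the 40 genes and lowered 1, LIPA (limma on the per-line model, adjusted p under 0.05), where 21.4% of all genes were called and 10.8% called higher. In both array pairs 32 of 40 genes were higher with IM and 3 lower, against 34.8% and 30.9% of all genes. The median difference was 0.75, against 0.03 for all genes. By role, the genes called higher were 3 of 8 membrane proteins, 7 of 11 proteases, 4 of 10 glycosidases and sulfatases, 4 of 6 lipid enzymes and carriers, and 1 of 3 pump subunits. At least 2-fold in both pairs, 14 genes were higher and none lower, against 4.99% and 6.2% of all genes. SMPD1, counted in the 19 and the 14, and CTSK, counted in the 19, were at background on all arrays.

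LAMP1 in KBM5 read 2654 without drug, 3610 with OR21, 7417 with IM and 7777 with the combination. LAMP2 read 2271, 3750, 6691 and 7310 on the same arrays. For each of these membrane glycoproteins both arrays with IM lay above both without it, by 1.29 ± 0.24 for LAMP1 (SE, adjusted p = 0.00282) and 1.26 ± 0.25 for LAMP2 (SE, adjusted p = 0.00431). NPC1, which exports cholesterol from the lysosome, differed by 1.13 ± 0.23 (SE, adjusted p = 0.00559). MCOLN1 differed by 0.42 and was not called (adjusted p = 0.269).

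MANBA had the largest measured difference of the 40 genes in KBM5, 2.58 ± 0.23 (SE) or 5.99-fold (limma, adjusted p = 3.96e-05). CTSD read 562.02 in the KBM5 control, 2246 with OR21, 2619 with IM and 8413 with the combination. IM raised CTSD by 2.06 ± 0.24 (SE, adjusted p = 0.000192), although the OR21 array and the IM array were close to each other. CTSA, the carboxypeptidase that also protects other lysosomal enzymes, read 6572, 14971, 26927 and 40721, a difference of 1.74 ± 0.30 with IM (SE, adjusted p = 0.00185). GALNS and ARSB, sulfatases that act on glycosaminoglycans, each differed by 1.43 (adjusted p = 0.00621 and 0.0119).

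LIPA, the acid lipase that frees cholesterol from its esters, went the other way. It read 1044 in the KBM5 control, 689 with OR21, 488 with IM and 359 with the combination. It fell by 1.02 ± 0.26 with IM on the log2 scale (SE, limma, adjusted p = 0.0187), and both IM arrays lay below both others. The call of LIPA was lost without any 1 of the 4 KBM5 arrays. With each of the 8 arrays left out in turn, 14 to 19 of the genes were called in KBM5, and 13 genes, LAMP1, NPC1, CTSA, CTSB, CTSD, TPP1, HEXA, MANBA, GALNS, ASAH1, SMPD1, PSAP and GRN, were called in every such fit. LAMP2, CTSZ and ARSB lost the call without the KBM5 control or the KBM5 IM array, and CTSS without any KBM5 array. CTSK lost it without the KBM5 OR21 or combination array. ATP6AP1, the pump subunit called, kept it in 2 of the 8 fits, those without the KBM5 OR21 or the KBM5 combination array.

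In K562, IM raised enzymes and lowered 3 of them, and no membrane protein passed the test. The calls were 11 higher and 3 lower of 40 (limma on the per-line model), where 13.4% of all genes were called, 5.34% higher and 8.05% lower. In both pairs 20 of 40 genes were higher with IM and 9 lower, against 38.7% and 30.7% of all genes. The median difference was 0.21, against 0.07 for all genes. The largest rise was that of ASAH1, 2.05 ± 0.28 (SE, 4.15-fold, adjusted p = 0.00116), followed by MANBA at 2.82-fold (adjusted p = 0.00222) and TPP1 at 1.37 ± 0.25 (SE, adjusted p = 0.0051). CTSL, a cysteine protease, read 1539 and 1656 without IM and 3479 and 4548 with it, a difference of 1.32 ± 0.24 (SE, adjusted p = 0.00492). CTSD rose by 1.02, CTSB and GRN by 1.17 each, HEXA by 1.12, PSAP by 1.09 and CTSZ by 1.28. CTSF was called higher as well but was at background on all arrays. At least 2-fold in both pairs, 5 genes were higher (ASAH1, CTSL, HEXA, MANBA and TPP1) and 3 lower, against 2.52% and 4.39% of all genes.

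The 3 genes that fell in K562 were CTSH, CTSC and GLA. CTSH, an aminopeptidase, read 2885 in the control, 2717 with OR21, 592 with IM and 693 with the combination. CTSC, the dipeptidyl peptidase that activates the serine proteases of granulocytes, read 35508, 18817, 8196 and 6734. GLA, the alpha-galactosidase, read 1043, 1260, 369 and 426. For all 3, which were named because they were called, both arrays with IM lay below both without it. The share of all genes that separate in this way was not counted. The falls were -2.13 ± 0.26 for CTSH (SE, adjusted p = 0.000537), -1.80 ± 0.25 for CTSC (SE, adjusted p = 0.00125) and -1.53 ± 0.23 for GLA (SE, adjusted p = 0.00193). LAMP1 (-0.32), LAMP2 (-0.11) and MCOLN1 (0.05) were not called in K562.

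The count in K562 fell from 14 to 1 without the K562 control or the K562 IM array, and to 4 without the K562 OR21 or the K562 combination array. CTSH was called in all 8 fits that left out 1 array. CTSC, TPP1 and ASAH1 were called in 6, all but those without the control or the IM array of K562. The other 10 calls were lost without any 1 of the 4 K562 arrays. CTSZ also lost its call on the scale of log2(value + 16).

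The response to IM differed between the lines for 6 of the 40 genes, all with a lower signed effect in K562 than in KBM5 (limma, difference of the IM effects, adjusted p under 0.05), where 10.2% of all genes were called and 5.25% called lower. They were CTSH (-2.31 ± 0.36, SE, adjusted p = 0.00312), GLA (-1.96 ± 0.33, SE, adjusted p = 0.00431), CTSC (-1.89 ± 0.35, SE, adjusted p = 0.00783), LAMP1 (-1.62 ± 0.33, SE, adjusted p = 0.0123), CTSA (-1.53 ± 0.42, SE, adjusted p = 0.0439) and LAMP2 (-1.37 ± 0.35, SE, adjusted p = 0.0337). For CTSH the KBM5 values lay above background on the combination array alone, so the size of its KBM5 term is not exact. In both comparisons of pairs, the IM effect of K562 minus that of KBM5 was below 0 for 27 of the 40 genes, against 31.8% of all genes, whether through a smaller rise or a larger fall in K562. It was above 0 in both for 4 genes, against 33.5% of all genes. ASAH1 and HEXA differed between lines by 0.06 and -0.06 (adjusted p = 0.953 and 0.939). CTSH and GLA kept the call in all 8 fits without 1 array. LAMP1 lost it without any K562 array, CTSC without the K562 control or IM array, and CTSA without the K562 OR21 or combination or the KBM5 control or IM array. CTSA also lost the call on the scale of log2(value + 16). LAMP2 lost it without any K562 array and without the KBM5 control or IM array. Across the 40 genes the IM effects of the lines had a Pearson correlation of 0.544 and a Spearman correlation of 0.530, and across all genes the Pearson correlation was 0.349. Genes share the same arrays, so these values only describe the arrays.

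**Figure D3:**
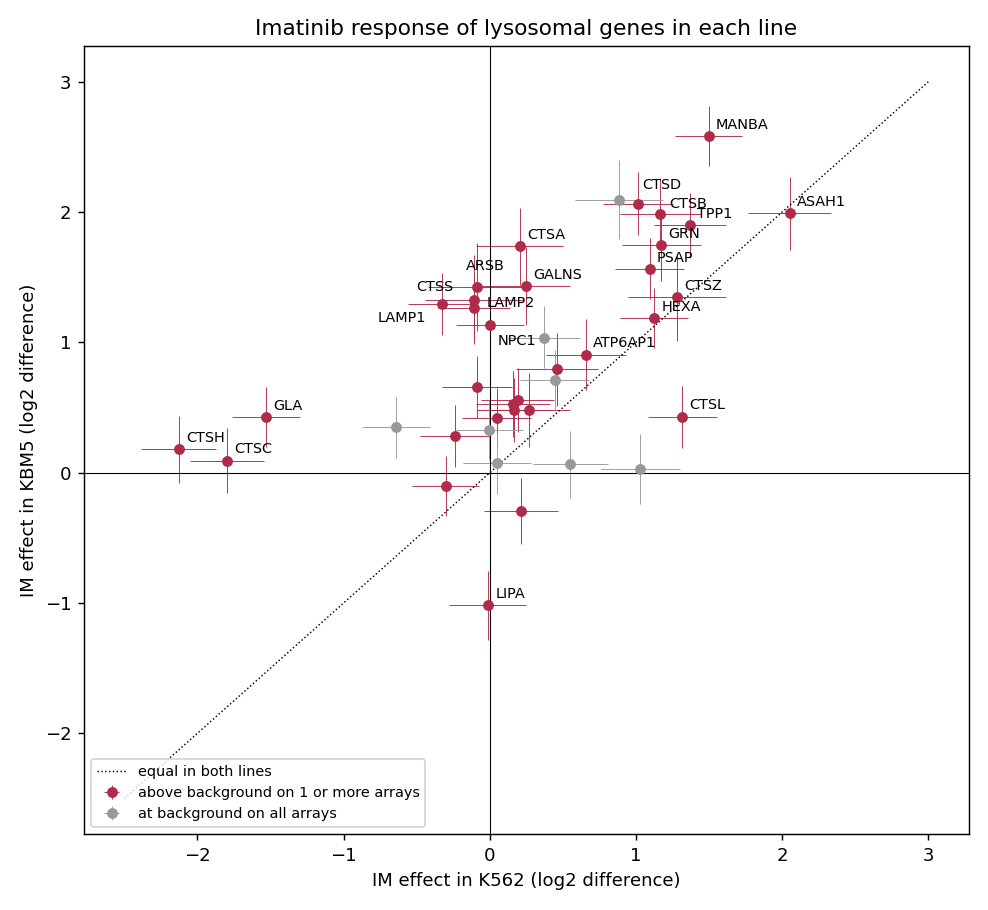
Effect of IM in K562 (x axis) and in KBM5 (y axis) for the 40 measured lysosomal genes, as log2 differences over the 2 array pairs of each line with bars of 1 SE, named where a gene above background was called in either line. ASAH1 and HEXA lie near the line of equal effects, LAMP1, LAMP2 and CTSA rise in KBM5 alone, and CTSH, CTSC and GLA lie at negative values in K562.

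Lineage and proliferation markers moved on the same arrays. In K562 the summed erythroid markers were 138363 in the control, 478872 with OR21, 1114170 with IM and 1091040 with the combination, and 7 of 8 were called higher with IM. In KBM5 the summed monocytic and granulocytic markers were 13426, 44985, 259521 and 201922, with 3 of 10 called higher and 1 lower with IM. LYZ made up most of each sum, at 12342, 31218, 254951 and 185905. The median difference of the 10 markers with IM in KBM5 was 0.30, against 0.03 for all genes. All 6 proliferation markers fell with IM in KBM5, from a sum of 29472 without drug to 3184 with IM, and none was called in K562. The median log2 intensity of the 40 genes over the same 4 treatments was 9.72, 10.08, 10.49 and 10.28 in K562 and 10.25, 10.46, 11.14 and 11.27 in KBM5. The part of these markers in the lysosomal results was not tested.

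**Figure D4:**
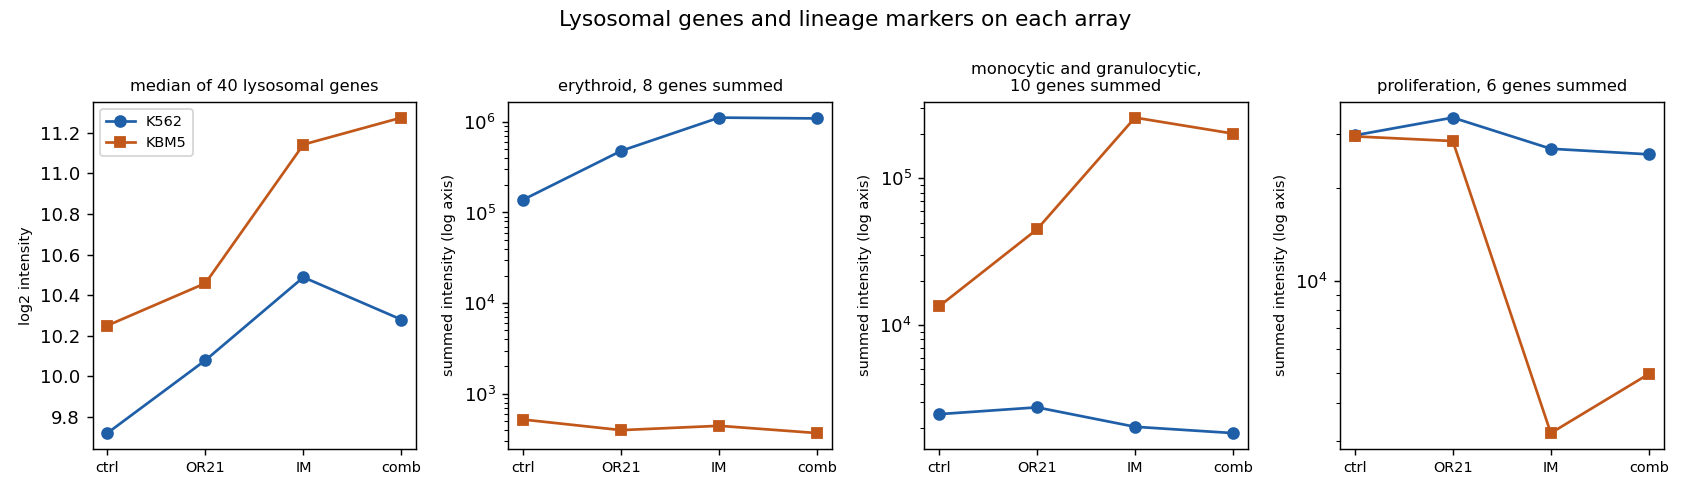
Median log2 intensity of the 40 lysosomal genes (left) and summed intensity (log axes) of 8 erythroid, 10 monocytic and granulocytic and 6 proliferation markers on the control, OR21, IM and combination arrays (x axis) of K562 (circles) and KBM5 (squares), 1 array per point. The median is higher with IM in both lines, the erythroid sum is higher with IM in K562, and the proliferation sum is lower with IM in KBM5.

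The OR21 effect was taken over OR21 against control and the combination against IM, and few of these genes were called for it. Over both lines limma called 0 of 40 genes and 0% of all genes, and at an unadjusted p under 0.05 there were 2 of 40, CTSD and ASAH1, against 3.52% of all genes. In all 4 pairs 7 genes were higher and 1 lower with OR21, against 7.42% and 9.01% of all genes. CTSD was among the 7, by 1.10 ± 0.38 (SE, adjusted p = 0.999). In K562 limma called 0 of 40, with 0.0905% of all genes called, and 1 of 40 (CTSC) passed an unadjusted p under 0.05, against 4.88% of all genes. In both K562 pairs 14 of 40 genes were higher with OR21 and 6 lower, against 24.7% and 27.2% of all genes. CTSC was lower in both K562 pairs, with differences of -0.92 and -0.28, and the mean of -0.60 was not called (adjusted p = 0.996).

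In KBM5 OR21 raised 2 of the 40 genes, CTSD and CTSH, both proteases, where 0.543% of all genes were called, 0.486% higher and 0.0565% lower. In both KBM5 pairs 22 of 40 genes were higher and 7 lower, against 26% and 30.5% of all genes. CTSD went from 562.02 to 2246 without IM and from 2619 to 8413 with IM. These 2 pairs gave a difference of 1.84 ± 0.24 (SE) or 3.58-fold (limma, adjusted p = 0.012), and CTSD was called in all 8 fits that left out 1 array. CTSH went from 87.7 to 188 without IM and from 78.3 to 270 with IM, and only the last of these values was above background, so no fold is given (adjusted p = 0.044). The call of CTSH was kept in 2 of the 8 fits without 1 array. At an unadjusted p under 0.05, 9 of 40 genes were higher in KBM5 and none lower, where 12.6% of all genes passed in either direction. The difference between lines in the response to OR21 was called for none of the 40 (limma, 0.102% of all genes), and for 5 at an unadjusted p under 0.05, against 7.64% of all genes. CTSD was the farthest at -1.47 ± 0.34 (SE, adjusted p = 0.264). On the scale of log2(value + 16) neither CTSD nor CTSH was called for OR21 in KBM5.

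The combination was set against control and against IM alone. Against control 1 gene was called, ASAH1, higher by 2.59 ± 0.24 (SE, 6.04-fold, limma, adjusted p = 0.0412), where 0.198% of all genes were called, 0.0622% higher and 0.136% lower. Its pairs in the lines were 2.60 and 2.58. The call of ASAH1 was lost without any 1 of the 8 arrays. CTSD had a difference of 2.64 ± 0.54 (SE) that was not called (adjusted p = 0.0937), with pairs of 1.38 in K562 and 3.90 in KBM5. Of the 40 genes 22 were higher in both pairs and 1 lower, against 28.7% and 27.4% of all genes.

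Against IM alone limma called 0 of 40 genes and 0% of all genes, and none of the 40 passed an unadjusted p under 0.05, against 3.42% of all genes. In both lines 17 of 40 genes were higher with the combination than with IM and 7 lower, against 25.2% and 28% of all genes. CTSB was 0.55 higher with the combination than with IM in each line, which was not called (adjusted p = 1.00). CTSD was 0.18 higher in K562 and 1.68 higher in KBM5. ASAH1 was 0.35 higher in K562 and 0.11 higher in KBM5. The interaction of the 2 drugs was called for 0 of 40 genes and 0% of all genes by limma, and 1 gene, CTSZ, passed an unadjusted p under 0.05, against 1.55% of all genes. In both lines 15 of 40 genes had a negative interaction and 9 a positive interaction, against 25.5% and 26.6% of all genes. For CTSZ the combination lay below the sum of the single effects in both lines (-0.90 in K562 and -1.27 in KBM5, -1.09 ± 0.41, SE, adjusted p = 1.00).

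Apart from the drugs, the lines held different amounts of these transcripts. Over the 4 treatments 22 of the 40 genes differed (limma, adjusted p under 0.05), 7 higher and 15 lower in K562, where 32% of all genes were called, 17% higher and 15% lower. The 7 higher are close to the share of all genes. ARSB, an arylsulfatase of dermatan sulfate, was at background on all K562 arrays (67.4 at most) and read 1421 to 6571 in KBM5. Its mean over the 4 treatments was at least 21.0-fold lower in K562 (limma, adjusted p = 4.61e-05). LIPA was also at background in K562 (24.1 at most) and read 359 to 1044 in KBM5, with a mean at least 3.46-fold lower in K562 (limma, adjusted p = 2.51e-05). CTSS, the cathepsin of antigen presentation, read 127 to 238 in K562, above background on 2 of 4 arrays, and 2675 to 7537 in KBM5, so that its size is not exact (adjusted p = 0.000128).

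LAMP1 read 315 to 510 in K562 and 2654 to 7777 in KBM5 (-3.58 ± 0.35, SE, adjusted p = 0.00042), without overlap of the lines. LAMP2 was level between the control arrays, 2130 and 2271, and differed by -1.30 over the 4 treatments (adjusted p = 0.0265). GALNS was above background on 1 of 4 K562 arrays and was called lower in K562 with no exact size (adjusted p = 0.000456). The mannosidases MAN2B1 and MANBA differed by -2.49 and -2.08, and CTSA by -2.20. With each array left out in turn, the calls of LAMP2, PPT1 and NPC1 were kept in 2 of 8 fits, that of ASAH1 in 4 and that of ATP6AP1 in 0. With quantile normalization NPC1 and ATP6AP1 were not called, and NPC1 was not called with log2(value + 16) either.

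CTSL was higher in K562, 1539 to 4548 against 219 to 326 in KBM5 (3.20 ± 0.24, SE, adjusted p = 0.000134). It was above background on 3 of 4 KBM5 arrays, and not on the control (219), so that this size is not exact. CTSH read 592 to 2885 in K562 and was above background on 1 of 4 KBM5 arrays, so that it was called higher in K562 with no exact size (adjusted p = 0.00382). PSAP, NPC1 and ATP6AP1 were higher in K562 by 1.24, 0.93 and 0.74. SMPD1 and CTSF were called but at background in both lines.

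**Figure D5:**
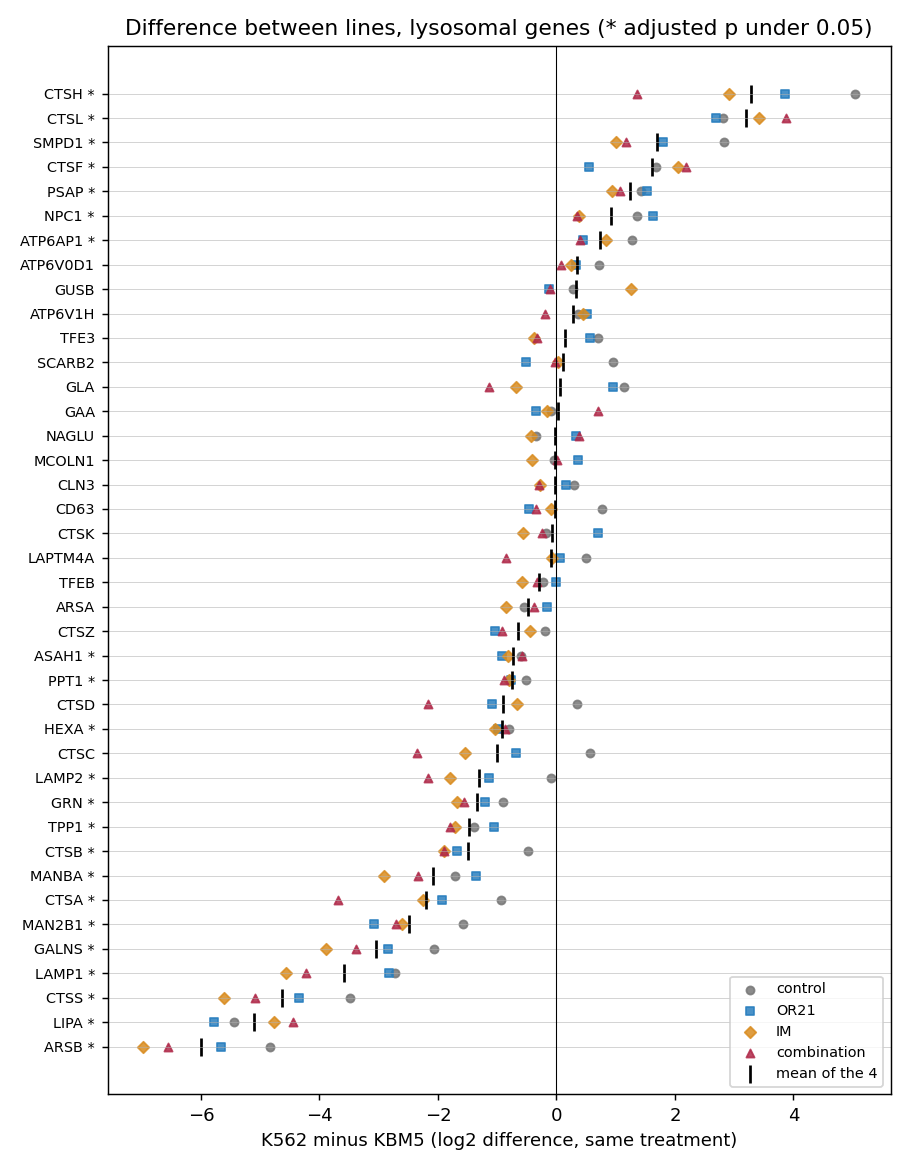
Difference between K562 and KBM5 (x axis, log2 of K562 minus log2 of KBM5 on arrays of the same treatment) for the 40 measured lysosomal genes (y axis), 1 symbol per treatment and a bar for the mean of the 4. ARSB, LIPA, CTSS, LAMP1 and GALNS lie at the negative end for all 4 treatments, and CTSL and CTSH at the positive end.

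The promoter elements shown above were counted beside the calls, with no test. Of the 9 genes called with IM in both lines 4 had a promoter in the table (CTSZ, GRN, SMPD1 and TPP1), and the E-box was found in 0 of them. Of these 4, GRN and TPP1 held the M-box, as did CD63 and PPT1, which were not called. Of the 11 genes called higher with IM in KBM5 that had a promoter, 3 held the extended E-box (LAMP1, CTSA and GALNS), and of 17 not called, 4 held it (CLN3, MCOLN1, GAA and ATP6V0D1). No match says only that these letters are not in the window.

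Other genes of the organelle were counted in the same way, against 10.8% of all genes called higher and 10.6% lower with IM in KBM5, and 5.34% higher and 8.05% lower in K562. Of 21 other lysosomal membrane proteins, IM raised 12 and lowered 1 in KBM5 and raised 0 and lowered 5 in K562 by limma, where 3 were higher at an unadjusted p under 0.05 in K562. CD68, a macrophage glycoprotein of the LAMP family, rose by 3.05 in KBM5 and fell by 1.45 in K562, and LAPTM5, a lysosomal protein of blood cells, rose by 1.95 in KBM5 and fell by 1.97 in K562. LAPTM5 was below background on the K562 IM array (141), so the size of its fall is not exact. The difference between lines was called for CD68 and LAPTM5 (limma, adjusted p = 0.000402 and 0.000511). LAPTM4B fell in both lines (-2.99 in K562 and -2.37 in KBM5), whereas its relative LAPTM4A, of the main list, was not called in either line.

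Of 20 other hydrolases, IM raised 8 and lowered 1 in KBM5 and raised 5 and lowered 2 in K562. FUCA1, a fucosidase, rose by 3.08 in KBM5 and 1.13 in K562, and MAN2B2, another mannosidase, by 1.96 and 1.51. Of 13 other pump subunits, IM raised 3 in KBM5 (ATP6V1A, ATP6V1B2 and TCIRG1) and lowered 2 in K562 (ATP6V0B and ATP6V1C1). In either direction 23.1% and 15.4% of them were called, against 21.4% and 13.4% of all genes. By direction, 10.8% of all genes were called higher in KBM5 and 8.05% lower in K562. Of 9 genes that sort or activate lysosomal enzymes 2 rose in KBM5 (IGF2R, a mannose 6-phosphate receptor, and GGA2) and 1 in K562. The latter was SUMF1, which activates sulfatases and does not sort enzymes. In K562 SUMF1 read 111 and 108 without IM, below background, and 288 and 254 with it.

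Of 19 genes of mTORC1, the Rag GTPases and the control of TFEB, IM raised 6 and lowered 2 in KBM5 and raised 1, FNIP1, in K562, where 5.26% called lies below the 13.4% of all genes. TFEC, a relative of TFEB, rose by 3.45 ± 0.23 in KBM5 (SE, limma, adjusted p = 1.04e-05) and did not exceed background on any K562 array. Its mean level over the 4 treatments was at least 14.3-fold lower in K562 (limma, adjusted p = 0.000381). MLST8, a subunit of mTORC1, fell by 1.80 in KBM5, and FNIP1, which acts with folliculin, rose by 1.14 in KBM5 and 0.80 in K562.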

How the data were processed

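Per the labels, total RNA was labelled with biotin and measured on 1-colour arrays, 1 per line and treatment. The authors deposited a linear intensity for each of 24351 probe sets. How they were summarized and normalized, and in which software, is not given in the sources used here. Supplied platform annotation gave 17709 probe sets 1 symbol, for 17687 genes, and none several. No total count exists for arrays, and their number limits the precision.

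Values were taken as log2(intensity) without further normalization and tested with limma 3.58.1 in R 4.3.3. The model of both lines had line and treatment as terms (3 residual degrees of freedom). The per-line model gave each line its own baseline, OR21 and IM terms (2 residual degrees of freedom), with the 2 array pairs of each drug as repeats. Adjusted p-values are Benjamini-Hochberg values over the 17687 genes within each contrast, with calls made under 0.05. "At least" marks a bound on the difference of mean log2 values, where 1 side was at background on all its arrays. The values of that side were raised to the background of each array, so single arrays can differ by less than the bound. The scripts were tested on simulated data.

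The 42 genes, the other lysosome lists and the tests were chosen with earlier results of these data known. For each contrast up to 12 called genes of the list were to be named, plus up to 4 that moved one way in every pair without a call. CTSD, LAMP1, LAMP2, MCOLN1, TFEB and TFE3 could be named anywhere, and other values shown were chosen after they were seen. Promoters and gene positions are from RefSeq, GRCh38.p14. The alternatives were quantile normalization, brighter genes alone, trended and robust moderation, log2(value + 16), no line term, a common interaction term, other folds, and each array left out in turn.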

Additional observations from a re-analysis of the deposited data

Results flagged for a closer look

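For 6 of the lysosomal genes the effect of IM differed between K562 and KBM5 by a test of the difference itself (limma, adjusted p under 0.05). The IM effect in K562 minus that in KBM5 was -2.31 for CTSH, -1.96 for GLA, -1.89 for CTSC, -1.62 for LAMP1, -1.53 for CTSA and -1.37 for LAMP2 on the log2 scale. CTSH, GLA and CTSC fell with IM in K562 and were not called in KBM5, whereas LAMP1, CTSA and LAMP2 rose in KBM5 and were not called in K562.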

How the results depend on the processing

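Each line and treatment had 1 array, so the repeats came from the design and every array was taken to have the same spread. A replicate number could not serve as a block, because a line and treatment had 1 array. The line term paired the arrays within a line. Genes of the list called with IM in both lines numbered 9, and 0 without the line term. The combination against control gave 1, and 0 without the line term or with log2(value + 16). OR21 in KBM5 gave 2, and 0 with log2(value + 16). The difference of the IM effect between lines gave 6, and 10 with brighter genes alone and 11 with trended and robust moderation. At least 2-fold in both pairs gave 8 genes in K562 (15 at 1.5-fold, 2 at 3-fold) and 14 in KBM5 (4 at 3-fold). With 1 array left out in turn the counts were 1 to 10 for IM in both lines, 0 to 0 for the combination against control, 1 to 15 for IM in K562, 14 to 19 for IM in KBM5, 1 to 2 for OR21 in KBM5, 3 to 8 for the IM difference and 17 to 23 for the difference of the lines. They were 0 for OR21 in both lines and in K562, the combination against IM, the interaction and the OR21 difference. Signs turned, all without a call, for GLA with OR21 (-0.00409 without the KBM5 combination, up to 0.80 without the K562 combination), for CTSS and CTSF in the combination against IM (-0.12 to 1.19, lowest without the K562 IM array, and -0.00477 to 0.75, lowest without the K562 combination), and for CTSA in the interaction (-1.81 to 0.17, above 0 without the K562 combination and, at 0.02, without the KBM5 control). The causes were not tested. Low signal limits the 8 genes at background.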
